A study of Mus musculus with 3 samples.

Results

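The mitochondrial carrier family Slc25 was described in 3 hearts of wild-type (WT) C57BL/6J mice at postnatal day 9. Members were all genes of the deposited read count table whose symbol begins with Slc25a and a number, which gave 46 of 18038 genes. The hearts, called hearts 1, 2 and 3 after their replicate numbers, form a single group without any treatment. Nothing in the labels tells whether the hearts are from different animals, and the p-values below therefore speak only of scatter among these 3 samples, part of which may be technical. The study concerns glutamylated microtubules and coupling between cardiomyocytes, and the series holds no second condition, so the comparisons below are between carrier genes within a heart or between the hearts.

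Mitochondrial carriers are small proteins of the inner mitochondrial membrane. Each is built from repeats of a similar fold and exchanges or imports a particular solute, such as ADP for ATP, phosphate, a carboxylic acid, an amino acid, a cofactor or iron. Heart muscle relies on mitochondrial ATP, so its carriers of adenine nucleotides, phosphate, fatty acyl-carnitine and the malate-aspartate shuttle handle large fluxes.

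The repeats can be seen in the coding sequences. The family signature, a proline codon, an aspartate or glutamate codon in the third place and a lysine or arginine codon in the sixth place, was searched in frame in the longest GENCODE coding sequence of each gene. At least 1 match was found in 43 of 46 members against 30.7% of 17318 genes of the table, and 3 or more matches in 27 members against 3.0% of genes. Slc25a46, Slc25a51 and Slc25a53 had none. The matches of Slc25a4, the most abundant member, are shown with the signature in capitals, 5′ to 3′ on the coding strand, because they mark the 3 repeats of the protein. Codons are counted from the ATG as codon 1, and positions are on the minus strand of GRCm38.
Slc25a4 from codon 28, chr8:46210815-46210850: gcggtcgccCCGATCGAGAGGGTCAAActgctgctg
Slc25a4 from codon 133, chr8:46209197-46209232: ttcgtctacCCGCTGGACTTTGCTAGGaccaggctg
Slc25a4 from codon 230, chr8:46208423-46208458: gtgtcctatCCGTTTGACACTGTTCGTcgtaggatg

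ADP/ATP carriers have a further run of 3 arginine codons followed by 3 methionine codons. Of the 46 members only Slc25a4, Slc25a5 and Slc25a31 hold it. The runs are shown in capitals with 24 coding bases on either side, since these paralogs stand at opposite ends of the levels given next. Each window crosses an intron, so the coordinates span more than the bases shown.
Slc25a4, exons, chr8:46207616-46208458, minus strand: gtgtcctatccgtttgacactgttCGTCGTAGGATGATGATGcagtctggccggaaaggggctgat
Slc25a5, exons, chrX:36797816-36798391, plus strand: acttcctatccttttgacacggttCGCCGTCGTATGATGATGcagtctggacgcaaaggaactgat
Slc25a31, exons, chr3:40722707-40724888, plus strand: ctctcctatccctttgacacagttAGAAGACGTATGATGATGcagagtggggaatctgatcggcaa
The coding sequences of Slc25a4 and Slc25a5 were 77.4% identical over 894 aligned bases, with a longest shared run of 20 bases. Slc25a31 was 66.6% identical to Slc25a4 and 66.9% to Slc25a5. Among the other compared paralogs the longest shared coding run was 25 bases, between Slc25a34 and Slc25a35. Only Slc25a11, Slc25a25, Slc25a37 and Slc25a51 had counts that were not whole numbers, as an estimate gives where reads are shared out between genes.

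Library totals were 17766501 to 18768094 counts. Cardiomyocyte markers were all detected (8 of 8) with a summed level of 87356 to 89815 TPM (a length-scaled transcript level that totals 1000000 in each heart). Heart 1 stood apart in lung airway markers, whose 8 genes summed to 2400 TPM there, 1.24 in heart 2 and 8.49 in heart 3. Markers of liver, where several carriers have their main role, summed to 14.1 to 34.2 TPM over 5 genes, of which 1, Ahsg, was detected. Of the 3 tested for variation between hearts by the test given below 1 was called, against 1.64% of all genes. This was Ahsg (2.78-fold, highest in heart 1, edgeR goodness of fit, adjusted p = 0.00210). Markers of endothelium, fibroblasts and macrophages were all detected (8 of 8 each), and none was called by that test. The hearts are whole tissue, in which fewer cells of a type and less RNA per cell cannot be told apart.

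Detection, defined as 1 CPM or more in every heart (CPM being a gene's counts when each library is scaled to 1000000), was reached by 38 of 46 members, or 82.6%. Over all genes 71.8% reached it. The median level was 14.97 TPM for the members and 9.41 TPM for all genes. The family summed to 10409 ± 241 TPM (SD, n = 3 throughout), or 1.04% of all transcripts. The distribution was steep: 2 members exceeded 1000 TPM, 5 lay between 100 and 1000, 21 between 10 and 100, 10 between 1 and 10, and 8 below 1. Slc25a4 alone held 54.7 ± 1.36% of the family total and the highest 3 members held 83.4 ± 0.667%. In the order of levels, 30 of 45 neighbouring members overlapped in their ranges over the hearts, so most ranks below the leading genes are not separated.

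**Figure D1:**
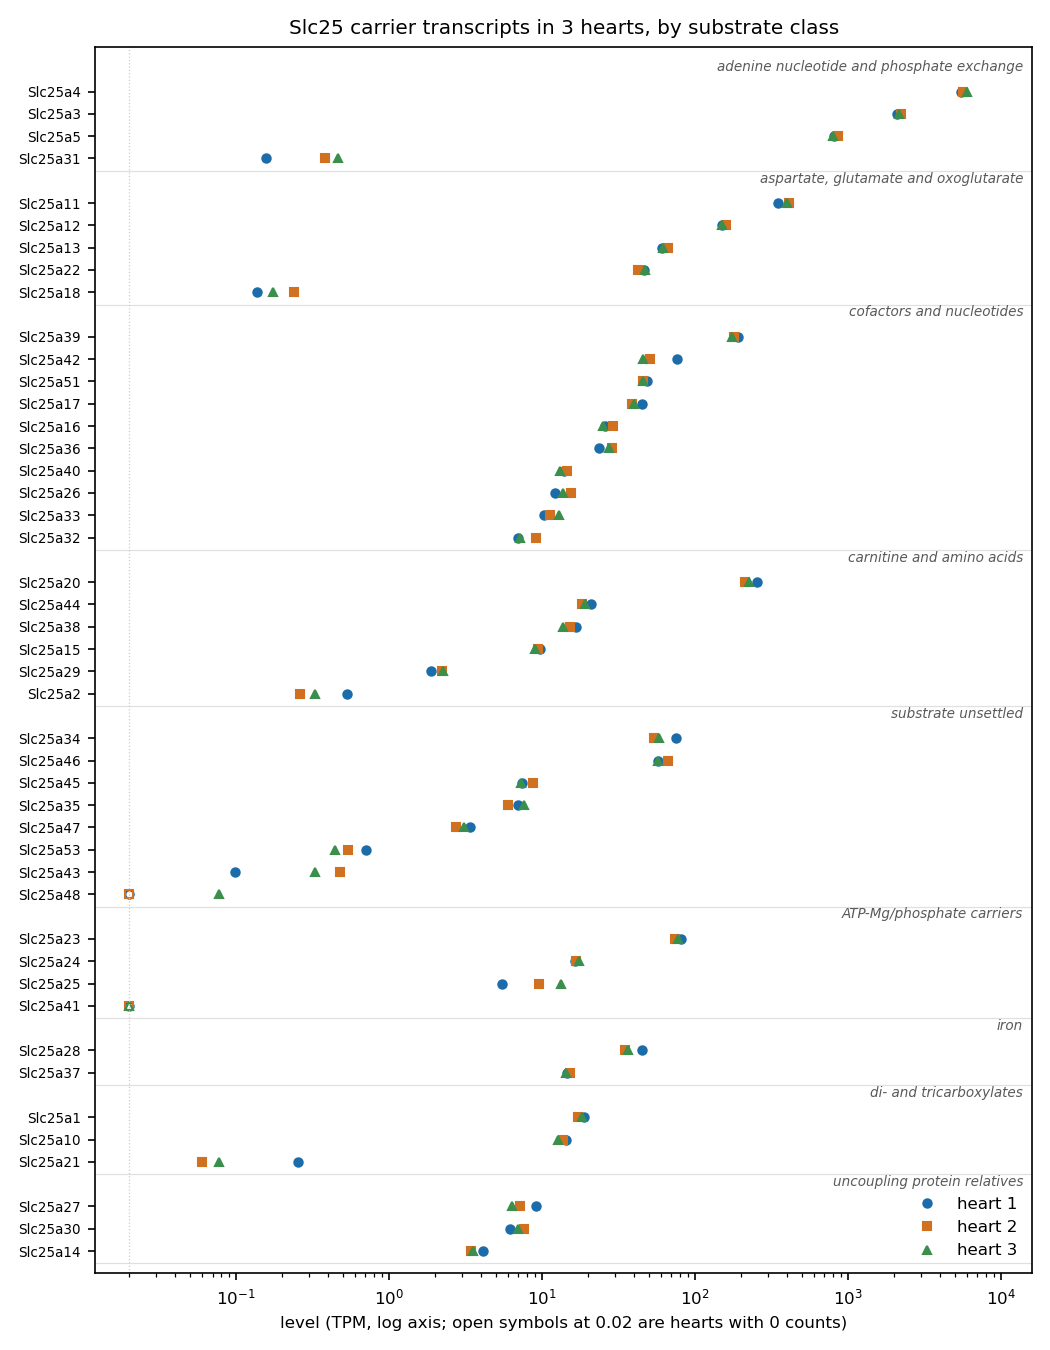
Levels of 45 of the 46 Slc25 members in TPM on a log axis, 1 row per gene and 1 symbol per heart, grouped by substrate class. Slc25a4, Slc25a3 and Slc25a5 lie above 800 TPM in every heart, and 8 members lie below 1 TPM.

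Carriers of adenine nucleotides and phosphate deliver the substrates of ATP synthase and export its product. Slc25a4 (Entrez ID 11739, chromosome 8, 46207339 to 46211009, minus strand of GRCm38), the heart and muscle ADP/ATP carrier, was at 5480, 5626 and 5984 TPM in hearts 1, 2 and 3. The phosphate carrier Slc25a3 (ID 18674, chromosome 10, 91113662 to 91125047, minus strand) was at 2106, 2224 and 2144 TPM. Its muscle and ubiquitous splice forms are not separated by a count per gene. Slc25a5 (ID 11740, chromosome X, 36795597 to 36798808, plus strand), the ADP/ATP carrier of many dividing cells, was at 807, 862 and 802 TPM. The 3 genes kept this order in every heart without overlap. Slc25a31, the germ cell form, had 3, 7 and 9 counts, below detection. Slc25a4 made up 87.3 ± 0.749% of ADP/ATP carrier transcripts and Slc25a5 12.6 ± 0.750%. The class as a whole held 83.4 ± 0.668% of the family by TPM.

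Ratios of related members were tested within hearts with the edgeR quasi-likelihood test, with the heart as a block and adjustment over the 23 pairs tested. The ratios were corrected for gene length, and several genes occur in more than 1 pair. All 23 pairs differed, with the largest edgeR adjusted p at 0.0327, and each had the same order in 3 of 3 hearts. No other gene pairs of the table were tested, so this count does not set carriers apart from other genes. The standard errors leave out any error in gene length. An exact sign-flip test over 3 hearts could not go below p = 0.25. Slc25a4 exceeded Slc25a3 by 1.40 on the log2 scale (SE 0.0528, edgeR adjusted p = 7.33e-05). This ratio was 2.16 with the longest transcripts, 1.09 without a length correction and 0.83 with the longest protein-coding transcripts. Slc25a3 exceeded Slc25a5, with a log2 ratio of Slc25a5 to Slc25a3 of -1.39 (standard error 0.0432, edgeR adjusted p = 4.62e-05). The ratio of Slc25a5 to Slc25a3 depended on the length used: with the longest GENCODE transcript of each gene it was 0.25 (edgeR adjusted p = 0.00792), with Slc25a5 higher, and with the longest protein-coding transcript -1.08, with Slc25a3 higher. The longest transcript of Slc25a3 measures 4039 bases and its longest protein-coding transcript 1612. The ratio of Slc25a4 to Slc25a5 was 2.79 (SE 0.0635, edgeR adjusted p = 2.25e-05), and 1.91 with either of the longer lengths.

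**Figure D2:**
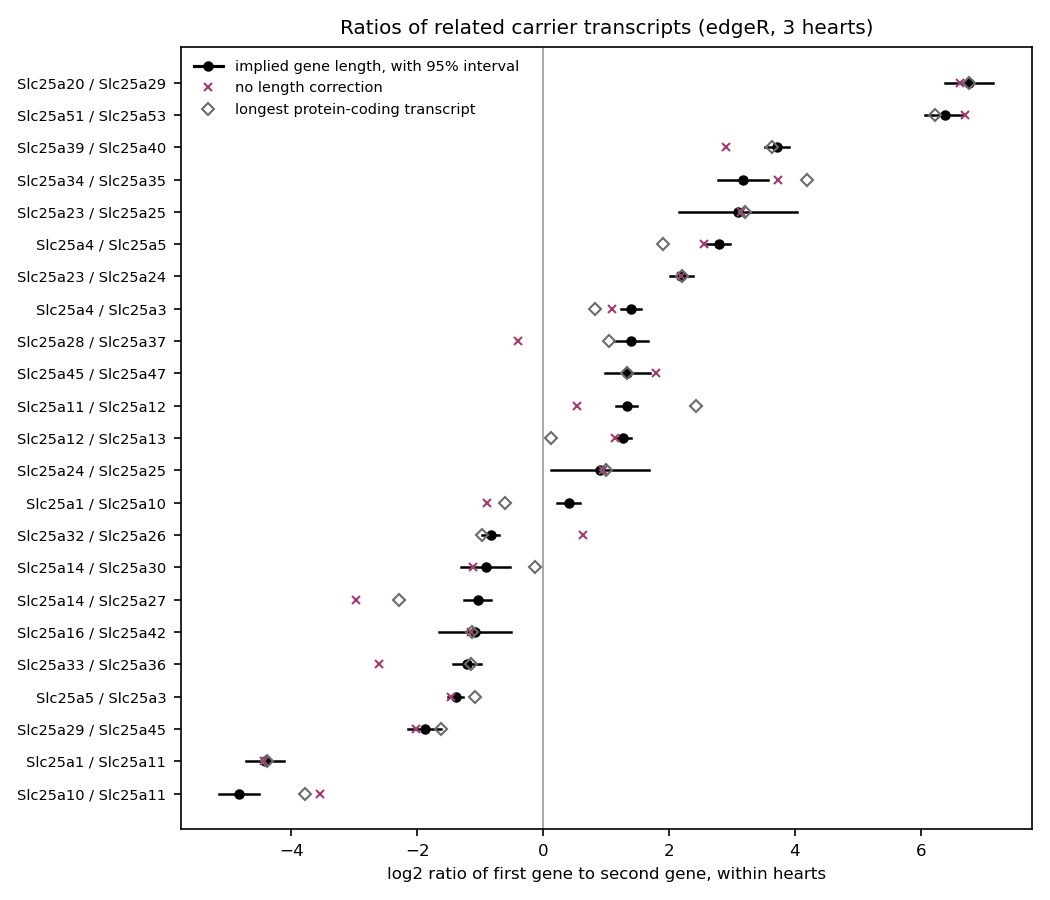
Log2 ratios of 23 pairs of related carrier genes, with 95% intervals from edgeR over 3 hearts and, as crosses and diamonds, the values without a length correction and with the longest protein-coding transcript. Slc25a1 over Slc25a10, Slc25a28 over Slc25a37 and Slc25a32 over Slc25a26 lie on opposite sides of 0 with and without the length correction.

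The malate-aspartate shuttle moves reducing equivalents of cytosolic NADH into mitochondria and needs 2 carriers, an oxoglutarate/malate exchanger and an aspartate/glutamate exchanger. Slc25a11 (ID 67863, chromosome 11, 70644019 to 70647423, minus strand), the oxoglutarate/malate exchanger, was at 347, 409 and 399 TPM. Its exons share 189 bases with Rnf167 on the opposite strand, and without a stated strand setting these reads cannot be told apart. Slc25a12, the aspartate/glutamate carrier of muscle and brain, was at 149, 160 and 150 TPM, and Slc25a13, its liver paralog, at 61.1, 66.7 and 62.2 TPM. Heart 1 was the lowest heart for all 3 genes, but the ranges were small (1.21-, 1.08- and 1.10-fold). None was called by the test of variation given below. With the glutamate carriers they summed to 647 ± 38.9 TPM, the next highest class. Slc25a12 made up 70.7 ± 0.213% of aspartate/glutamate carrier transcripts.

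Slc25a12 exceeded Slc25a13 by 1.27 in log2 (SE 0.0424, edgeR adjusted p = 5.21e-05). With the longest protein-coding transcripts this shrank to 0.13 (edgeR adjusted p = 0.0451), since that of Slc25a12 measures 6351 bases against 2772 implied by the deposited values. Slc25a11 exceeded Slc25a12 by 1.33 (SE 0.0594, edgeR adjusted p = 0.000112), a value that ranged from 0.54 without a length correction to 2.43 with the longest protein-coding transcripts. The glutamate carrier Slc25a22 was at 46.4, 42.6 and 47.4 TPM. Its paralog Slc25a18 had 2, 5 and 3 counts and was not detected, so that pair was not tested.

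Carriers of di- and tricarboxylates other than oxoglutarate were low. Slc25a1, which exports citrate for lipid synthesis, was at 18.9, 17.1 and 18.1 TPM, and Slc25a10, the dicarboxylate carrier, at 14.3, 13.7 and 12.7 TPM. The ranges do not overlap. Their log2 ratio was 0.41 (standard error 0.0624, edgeR adjusted p = 0.00449), but -0.89 without a length correction and -0.61 with the longest protein-coding transcripts, both past the threshold in the other direction. The deposited values imply 3919 bases for Slc25a10, whose longest GENCODE transcript has 2023, so the order of these genes is not settled. Both lay below Slc25a11, by log2 ratios of -4.41 for Slc25a1 and -4.82 for Slc25a10, the latter -3.54 without a length correction and -3.78 with the longest protein-coding transcripts. Slc25a21, the carrier of oxoadipate from lysine breakdown, had 6, 1 and 2 counts.

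Slc25a20 (ID 57279, chromosome 9, 108645920 to 108684641, plus strand) imports acyl-carnitines for fatty acid oxidation and was the fifth most abundant member, at 256, 214 and 224 TPM. It was highest in heart 1, by less than the test could separate. Of the amino acid carriers, Slc25a44, for branched-chain amino acids, was at 20.9, 18.2 and 19.0 TPM. Slc25a38, which brings in glycine for heme synthesis, was at 16.7, 15.3 and 13.6 TPM. The ornithine carrier Slc25a15 was at 9.76, 9.42 and 8.93 TPM, and its paralog Slc25a2 had 6, 3 and 4 counts. Slc25a29, a carrier of basic amino acids, was the lowest detected member at 1.88, 2.22 and 2.24 TPM. Slc25a20 exceeded Slc25a29 by 6.77 in log2 (SE 0.132, edgeR adjusted p = 2.25e-05), or 6.14 with the longest transcripts.

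All 11 carriers of cofactors and nucleotides were detected, and together they summed to 457 ± 24.7 TPM. Slc25a39, which supplies mitochondria with glutathione, led at 190, 181 and 174 TPM. Its paralog Slc25a40 was at 13.8, 14.6 and 13.1 TPM, a log2 ratio of Slc25a39 to Slc25a40 of 3.72 (standard error 0.0642, edgeR adjusted p = 2.25e-05); uncorrected for length it was 2.90, and with the longest transcripts 4.31. Slc25a42, a coenzyme A carrier, was at 75.9, 50.7 and 46.0 TPM, with heart 1 well above the others. The related Slc25a16 was lower in every heart, at 25.9, 28.99 and 24.9 TPM, and its log2 ratio to Slc25a42 was -1.08 (standard error 0.194, edgeR adjusted p = 0.00738).

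The mitochondrial NAD carrier Slc25a51 was at 48.9, 45.6 and 45.4 TPM. Slc25a17, of peroxisomes, averaged 41.2 ± 3.19 TPM. The pyrimidine nucleotide carrier Slc25a36 was at 23.4, 28.7 and 27.4 TPM. Slc25a33, of the same function, was lower in every heart at 10.2, 11.3 and 12.9 TPM, and 14.9% of its exon bases overlap Gm13068 on the opposite strand. The log2 ratio of Slc25a33 to Slc25a36 was -1.21 (standard error 0.0737, edgeR adjusted p = 0.000269), or -2.61 when uncorrected for length. Slc25a26, the S-adenosylmethionine carrier, was at 12.1, 15.5 and 13.7 TPM and Slc25a32, the folate or FAD carrier, at 6.96, 9.12 and 7.17 TPM, without overlap. The log2 ratio of Slc25a32 to Slc25a26 was -0.83 (standard error 0.0465, edgeR adjusted p = 0.000212), but 0.64 without a length correction. Slc25a51 exceeded its relative Slc25a53, which was below detection with 22, 17 and 16 counts, by 6.38 in log2 (SE 0.108, edgeR adjusted p = 2.25e-05).

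Mitoferrins import iron for heme and iron-sulfur clusters. Slc25a28, the broadly expressed form, was at 45.4, 34.97 and 36.5 TPM, and Slc25a37, the form of red cell precursors, at 14.6, 15.3 and 14.3 TPM. Slc25a28 made up 72.4 ± 3.03% of their transcripts. The log2 ratio was 1.40 (standard error 0.0939, edgeR adjusted p = 0.000353) with implied lengths of 1234 bases for Slc25a28 and 4256 for Slc25a37. It was 1.05 with the longest protein-coding transcripts (1535 and 4174 bases), 0.28 with the longest transcripts (3724 and 5927 bases) and -0.39 without a length correction. Red cell precursor genes were present in these hearts, with 8 of 9 detected and a summed level of 8567 to 14207 TPM, lowest in heart 3. Of the 8 tested for variation between hearts 1 was called, against 1.64% of all genes. It was Hbb-bt (2.04-fold, highest in heart 2, edgeR goodness of fit, adjusted p = 0.000892). Slc25a37 differed by at most 1.05-fold between hearts. The part of red cells in its level was not tested.

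ATP-Mg/phosphate carriers adjust the total adenine nucleotide content of mitochondria, most of them under control of calcium. Slc25a23 was the highest at 81.4, 74.1 and 77.1 TPM. Slc25a24 followed at 16.4, 16.8 and 17.5 TPM and Slc25a25 at 5.49, 9.54 and 13.4 TPM. The order of the 3 genes was the same in every heart. Slc25a23 exceeded Slc25a24 by 2.20 in log2 (SE 0.0616, edgeR adjusted p = 3.65e-05). Slc25a24 exceeded Slc25a25 by 0.91 (SE 0.266, 95% interval 0.13 to 1.68, edgeR adjusted p = 0.0327), the pair with the largest p. Its fitted value lay between 0.59 without heart 1 and 1.18 without heart 3, past the threshold each time. Slc25a23 exceeded Slc25a25 by 3.10 in log2 (SE 0.320, edgeR adjusted p = 0.00133).

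Slc25a41, the fourth ATP-Mg/phosphate carrier, had 0 counts in all hearts. A count of 0 allows up to 3 counts, or 0.160 to 0.169 CPM, for counting error only. Against that floor per library Slc25a23 was at least 754-fold higher in counts. The 2 genes are neighbours: Slc25a41 lies at chromosome 17, 57031454 to 57041705, and Slc25a23 at 57041775 to 57059881, both on the minus strand with 69 bases between them. Slc25a5 has a similarly unequal neighbour within 50 kb. Slc25a43 ends 18289 bases before it on chromosome X and was at 0.302 ± 0.193 TPM, with 1, 9 and 5 counts. The remaining neighbours, Slc25a29 and Slc25a47 on chromosome 12, were both low at 2.11 ± 0.205 and 3.07 ± 0.341 TPM.

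Relatives of the uncoupling proteins with Slc25 symbols were low. Slc25a27 was at 9.17, 7.20 and 6.38 TPM, Slc25a30 at 6.18, 7.58 and 6.96 TPM and Slc25a14 at 4.09, 3.42 and 3.52 TPM. The ranges of Slc25a27 and Slc25a30 overlapped, and Slc25a14 was the lowest in every heart. The log2 ratio of Slc25a14 to Slc25a27 was -1.04 (standard error 0.0746, edgeR adjusted p = 0.000417). It was -2.97 without a length correction and -2.29 with the longest protein-coding transcripts. That of Slc25a14 to Slc25a30 was -0.91 (SE 0.134, edgeR adjusted p = 0.00426) and was lost with the longest protein-coding transcripts (-0.12, edgeR adjusted p = 0.445). For Slc25a27 the length implied by counts and FPKM differed 1.18-fold between hearts, so its TPM varies more than its counts of 439, 416 and 366. The implied length over the hearts, 5749 bases, exceeds its longest GENCODE transcript of 2895, so its TPM and the overlap with Slc25a30 rest on that length.

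Of 8 members without a settled substrate, 5 were detected. Slc25a34 was at 75.6, 53.8 and 57.8 TPM, highest in heart 1. Slc25a46, a protein of the outer membrane, was at 57.6, 66.3 and 57.0 TPM. The other detected genes were low. Slc25a45 was at 7.35, 8.72 and 7.31 TPM, Slc25a35 at 6.92, 6.00 and 7.64 TPM, and Slc25a47, known from liver, at 3.40, 2.72 and 3.09 TPM. Slc25a34 exceeded Slc25a35 by 3.18 in log2 (SE 0.135, edgeR adjusted p = 0.000100), and 4.19 with the longest protein-coding transcripts. For Slc25a35, 31.3% of exon bases overlap Rangrf on the opposite strand. Slc25a48 had 1 count in heart 3 and 0 in the others. Slc25a45 exceeded both Slc25a47, by a log2 ratio of 1.34, and Slc25a29, with a log2 ratio of Slc25a29 to Slc25a45 of -1.88.

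For most carriers the differences between hearts were small. Scaled by TMM, the ratio of the highest to the lowest heart had a median of 1.16 over the 39 members with a mean of at least 10 counts, and 1.19 over all 13991 such genes. The ratio exceeded 1.5 in 2 of the 39. For variation between hearts the goodness of fit statistic of edgeR was used, which compares the scatter of a gene with that of genes of like abundance, adjusted over all genes tested. By this test 1 of 39 members varied, against 1.64% of all genes. The member was Slc25a25, and the unadjusted p was below 0.05 for 2 members.

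Slc25a25 (ID 227731, chromosome 2, 32414487 to 32451470, minus strand) had 157, 283 and 412 counts. It was lowest in heart 1, intermediate in heart 2 and highest in heart 3, a 2.57-fold range after scaling (edgeR goodness of fit, adjusted p = 0.00660). The call was made without heart 2 (adjusted p = 0.0167) but lost without heart 1 (adjusted p = 0.410) and without heart 3 (adjusted p = 0.794), each time with 2 hearts in place of 3. Its exons share 379 bases with Naif1 on the opposite strand, and its counts are not whole numbers. Heart 1, the lowest, is the heart with the airway transcripts, and the skeletal actin Acta1 followed the same order, with 312, 965 and 1761 counts. Of 7 skeletal muscle markers 2 were detected. Of the 5 tested for variation 1, Acta1, was called, against 1.64% of all genes. The 7 summed to 2477 to 2808 TPM, mostly Ckm, the other detected marker. Below detection were Myh1 (1.01, 1 and 1 counts), Myh2 (3.04, 0 and 2), Mylpf (15, 9 and 19) and Tnnt3 (29, 14 and 23). Ckm did not follow the order of Acta1 and was lowest in heart 2, at 2648, 2399 and 2673 TPM. Actn3, below detection, went the other way, with 19, 17 and 5 counts. The part of airway or muscle transcripts in the result was not tested. Slc25a42, with 2127, 1459 and 1381 counts, had the next widest range, 1.57-fold, and did not pass (edgeR goodness of fit, adjusted p = 0.304). Slc25a34, with 1782, 1305 and 1465 counts, ranged 1.40-fold.

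**Figure D3:**
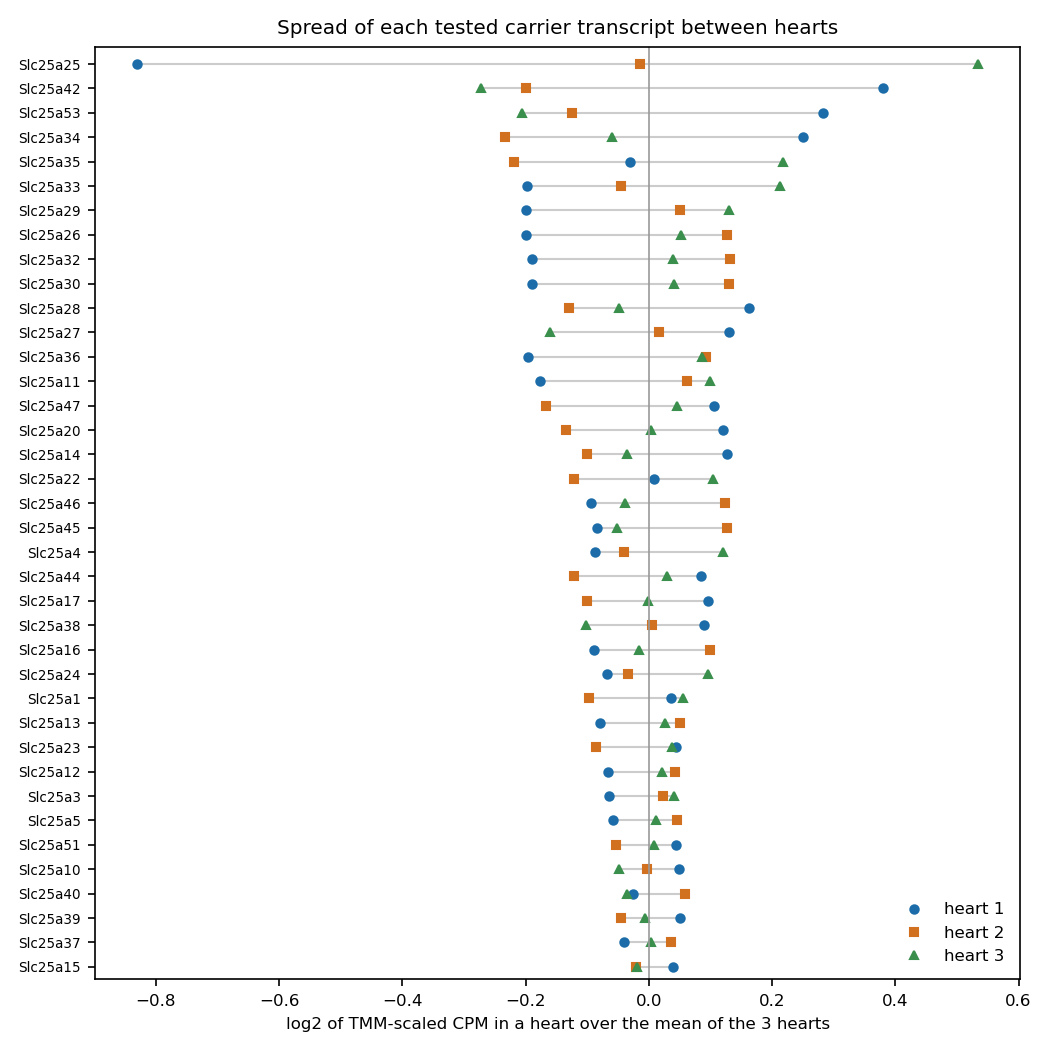
Log2 of the TMM-scaled CPM in each heart over the mean of the 3 hearts, for 38 of the 39 members tested for variation, ordered by range. Slc25a25 has the widest range, 2.57-fold from heart 1 to heart 3, and Slc25a42 follows with 1.57-fold.

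The family has 5 relatives with other symbols, which fall outside the naming rule: the uncoupling proteins Ucp1, Ucp2 and Ucp3 and the outer membrane proteins Mtch1 and Mtch2. All 5 were detected. Ucp2 was at 869, 631 and 645 TPM, in mean level between Slc25a5 and Slc25a11. Ucp1, the uncoupling protein of brown fat, was at 301, 120 and 201 TPM and varied between hearts (2.49-fold, edgeR goodness of fit, adjusted p = 3.21e-06). The fat cell markers Adipoq and Plin1 also varied and followed the same order, with 305, 123 and 263 counts of Adipoq and 342, 120 and 230 of Plin1. Cidea had that order too but was not called. The other markers on the list did not share it: Fabp4, Cox8b and Ppargc1a were highest in heart 3, and Elovl3 was lowest in heart 3. The 8 brown adipocyte markers summed to 5237, 4829 and 5366 TPM, mostly Fabp4 and Cox8b, which other heart cells also express. The part of fat tissue in the levels of the Slc25 members was not tested. Ucp3, of muscle, was at 106, 71.4 and 53.6 TPM (1.88-fold, edgeR goodness of fit, adjusted p = 0.0282).

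Solutes reach the carriers through outer membrane channels and are made or used by matrix enzymes. All 30 such partner genes on a list were detected. By the test of variation 1 of 30 was called, against 1.64% of all genes. It was Ckmt2, the mitochondrial creatine kinase that works beside the ADP/ATP carriers, at 512, 983 and 1091 TPM (2.25-fold, lowest in heart 1, edgeR goodness of fit, adjusted p = 0.000168). Ckmt2 had the same order over the hearts as Slc25a25. That order was not particular to them: uncalled partners such as Mpc1, Got2 and Cs shared it, while Cpt2 and Crat were highest in heart 1. Slc25a4 also had that order and ranged 1.15-fold. The outer membrane channels Vdac1, Vdac2 and Vdac3 were at 821 ± 15.96, 627 ± 14.6 and 467 ± 23.8 TPM, with Vdac1 at about the level of Slc25a5. The pyruvate carrier subunits Mpc1 and Mpc2, of a separate family, were at 551 ± 96.0 and 323 ± 14.99 TPM.

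Enzymes of the malate-aspartate shuttle were more abundant than its aspartate/glutamate carriers: Mdh2 was at 1934 ± 133 and Got2 at 861 ± 85.6 TPM, compared with 153 ± 5.70 TPM for Slc25a12. Of the carnitine system, Cpt1b was at 506 ± 19.1 and Cpt2 at 192 ± 14.9 TPM, on either side of Slc25a20 at 231 ± 22.2 TPM. The citrate-cleaving enzyme Acly, which acts downstream of Slc25a1, was at 37.8 ± 1.71 TPM.

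**Figure D4:**
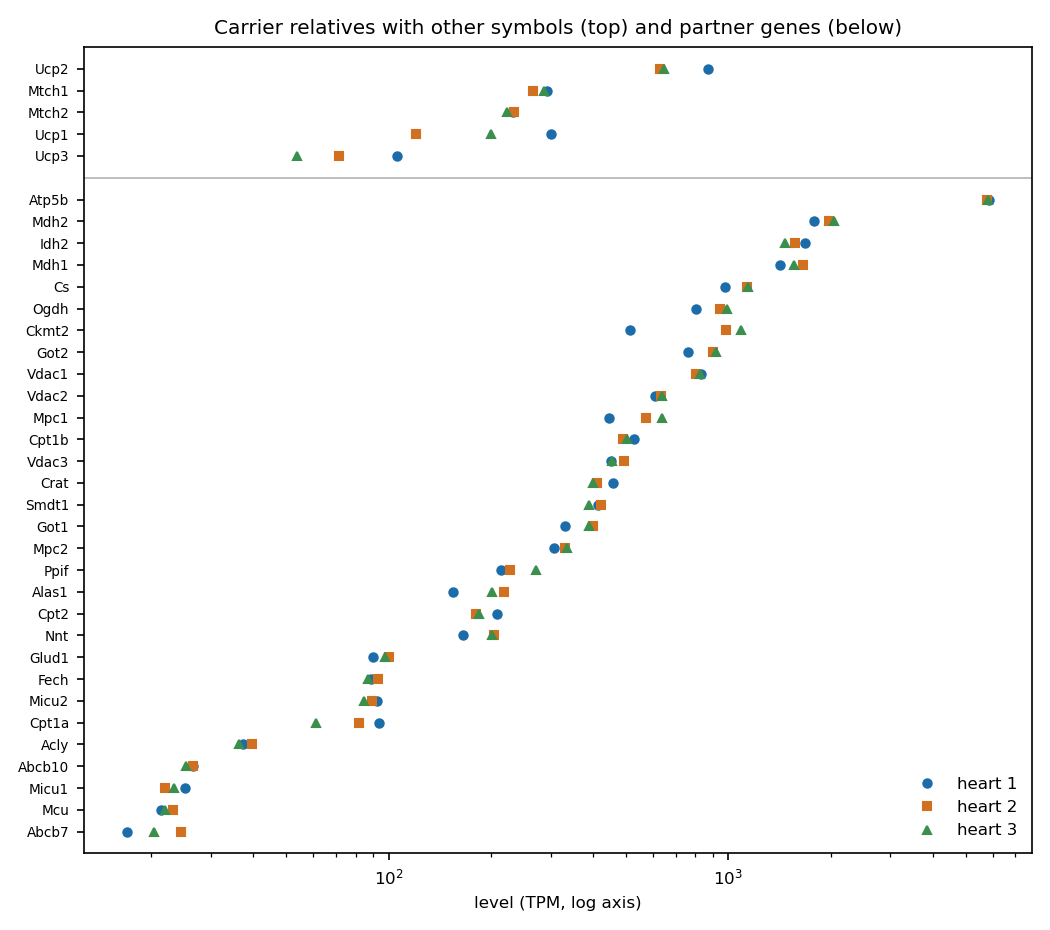
Levels in TPM on a log axis of 5 family relatives with other symbols (top) and 30 partner genes (below), 1 symbol per heart. Ckmt2 is lowest in heart 1 at 512 TPM, and Ucp1 ranges from 120 to 301 TPM.

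RefSeq promoters (GRCm38.p6, 250 bases before to 50 after a start) were matched for 35 members. The GC box GGGCGG, searched on both strands, was found in 30 of 35 members, or 85.7%, against 59.1% of 14128 table genes with a promoter and 38.2% of all 27025 genes in the promoter set. CCAAT was found in 54.3% of members and 42.3% of table genes, and TATAAA in 5.7% and 10.9%. The TATAAA matches were in Slc25a18 and Slc25a21, both below detection. A binding sequence of estrogen-related receptors, TCAAGGTCA, was found in no member promoter and in 0.4% of table genes. These counts describe letters in this window and not binding.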

How the data were processed

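RNA of 3 hearts was sequenced from DNBSEQ libraries, per the labels' protocols. The submitters' processing notes list HISAT, without a version, and the build GRCm38.p6. Which tool counted the reads, on which annotation and with what strand setting, is not given in the sources used here. The deposited table gives expected counts per gene, per the file headers, of which 87.5% to 87.6% per heart were within 0.005 of a whole number, and FPKM computed by the authors. Its 18038 genes were used, and 1 line without values was left out. FPKM was rescaled to TPM, and the gene length was the one implied by counts and FPKM over the hearts. Strands are those of GENCODE M21, since the table's strand differed from it for 8 members. Coding sequences also come from GENCODE M21 (GRCm38) and promoters from RefSeq.

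Counts were rounded to whole numbers for edgeR 4.0.16 (R 4.3.3, limma 3.58.1). TMM factors were 1.02, 0.996 and 0.985. For each pair of genes a quasi-likelihood fit was made to 6 columns with the heart as a block, since both genes of a pair come from the same heart. A common dispersion was used, the test was two-sided, and p-values were adjusted by Benjamini-Hochberg over all pairs tested. Pairs needed 10 counts in every heart for both genes, which left out 5 of 28. Variation was tested by the deviance under the trended dispersion against chi-square with 2 degrees of freedom, over genes with a mean of at least 10 counts. The threshold was an adjusted p of 0.05, and both tests were tested on simulated data. Alternatives were other gene lengths, DESeq2 1.42.0 size factors and Wald test, no block, a trended dispersion, no filter on low counts, detection by TPM, CPM and leaving out each heart. The longest protein-coding transcript was added after seeing the data. The members, lists, pairs and tests were chosen with earlier results of these data known. Every symbol of the rule entered the counts and sums, and 1 member is not reported here by name or shown in the figures. Values per heart are given for leading genes of each class, paired genes and variable genes, and other members are given by level or counts. Slc25a52 and Slc25a54 had no match by symbol.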

Additional observations from a re-analysis of the deposited data

How the results depend on the processing

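All 23 pairs were called without a length correction, with DESeq2 size factors, with the DESeq2 Wald test, with a trended dispersion and without each heart (23 to 23), and 22 with the longest transcript or longest protein-coding transcript. Without the replicate block the count was also 23. Of 230 pair ratios under alternatives, 222 kept direction and side of the threshold, 2 lost the call (Slc25a14 over Slc25a30 with both longer lengths) and 6 turned: Slc25a5 over Slc25a3 at 0.25 and Slc25a1 over Slc25a10 at -0.61 with the longest transcripts, Slc25a1 over Slc25a10 at -0.61 with the longest protein-coding transcripts, and Slc25a1 over Slc25a10 at -0.89, Slc25a28 over Slc25a37 at -0.39 and Slc25a32 over Slc25a26 at 0.64 without a length correction. These differ only in the length used. Leaving out a heart moved no ratio by more than 0.37 on the log2 scale.

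Without 1 heart, 0 to 1 members were called variable and 113 to 148 of all genes, against 1 and 229. Both counts of 0 come from edgeR, without heart 1 and without heart 3, where 1 and 3 members had an unadjusted p below 0.05. With DESeq2 size factors and without a filter on low counts 1 member was called. The count of detected members was 38 under each alternative. By CPM, with no length correction, the classes' shares of the family were 70.5% for adenine nucleotides and phosphate (83.4% by TPM), 9.96% for aspartate, glutamate and oxoglutarate (6.21%), 8.29% for cofactors and nucleotides (4.39%), 3.84% for carnitine and amino acids (2.67%), 2.99% for unsettled substrates (1.36%), 2.51% for ATP-Mg/phosphate (0.998%), 0.819% for iron (0.517%), 0.608% for di- and tricarboxylates (0.305%) and 0.452% for uncoupling protein relatives (0.175%). The order of the classes was the same on both scales. At this depth members under 10 counts have no reliable ratio.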
